A study of Mus musculus with 6 samples.

Results

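The 38 aminoacyl-tRNA synthetase genes were examined in RNA-seq of LSK cells, the lineage-negative, Sca1+, c-kit+ fraction of mouse bone marrow that holds the stem and multipotent progenitor cells. They were taken by gene name from the 54532 rows of the expression table, 22046 of which are protein coding, as every protein-coding row named for a synthetase of 1 amino acid, with *Eprs*, *Farsa*, *Farsb*, *Ears2*, *Fars2*, *Pars2* and *Tarsl2* included. By the rule, the 18 genes with names ending in 2 count as mitochondrial and the other 20 as cytosolic. *Tarsl2* is the exception, since it encodes a threonyl-tRNA synthetase of the cytosol, so values are also given for the 17 mitochondrial genes without it.

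Control libraries (CTRL, n = 3) came from *Myh9* fl/fl mice with no cre, and knockout libraries (cKO, n = 3) from *Myh9* fl/fl;*Mx1*-cre mice, all C57BL/6. *Myh9* encodes the heavy chain of non-muscle myosin IIA. Both groups carried the floxed allele and both received poly I:C at 5 mg/kg, in 2 doses by the sample descriptions and 3 by the methods. Injection started at 5 to 6 weeks of age by the methods, and the sample descriptions give genotyping at 4 to 5 weeks. Poly I:C mimics viral RNA and sets off interferon, which drives the *Mx1* promoter of the cre, and this promoter is active in cells other than blood cells. LSK cells were sorted 4 days after the first injection. Only 1 time point was taken, no group went without poly I:C, and the labels do not say how many mice stand behind a library.

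Aminoacyl-tRNA synthetases join each amino acid to its own tRNA, which makes them the step that reads the genetic code. Most amino acids have a nuclear gene for the cytosolic enzyme and another for the mitochondrial enzyme, while *Gars* and *Kars* serve both compartments, and no mitochondrial glutaminyl enzyme exists because glutamine is added there by conversion of charged glutamate. The enzymes fall into class I and class II by the fold of the catalytic domain, and several cytosolic ones sit in a multisynthetase complex held by the scaffold proteins Aimp1, Aimp2 and Aimp3 (gene *Eef1e1*). Many cytosolic synthetase genes are known targets of ATF4, the transcription factor of the amino acid response, and mitochondrial synthetases are needed for translation of the proteins encoded in mitochondrial DNA.

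The libraries held 17571544 to 19894562 reads on genes, recovered from FPKM (fragments scaled by gene length and by library size) and gene length. *Myh9*, the deleted gene, was at 23.0, 22.6 and 22.0 FPKM in CTRL and 18.4, 19.96 and 17.7 in cKO, a fall by 0.26 on the log2(FPKM + 1) scale (limma, Benjamini-Hochberg adjusted p = 0.00642). The groups did not overlap, yet most *Myh9* RNA remained at this time. Pearson correlations between libraries were 0.991 to 0.993 within groups and 0.974 to 0.977 between groups, so no library stood apart. Of the LSK markers, *Kit* was at 23.9 FPKM in CTRL and 21.5 in cKO and *Ly6a* (Sca1) at 95.4 and 89.5.

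All 38 synthetase genes had a mean above the filter of 1 FPKM and were tested, with 179 (*Wars2*) to 6057 (*Kars*) reads behind a value. At an adjusted p under 0.05 (limma), 22 of 38 were higher in cKO, which is 57.9%, against 19.9% of all 11552 genes tested. Another 2, which is 5.26%, were lower, against 20.6% of all genes, and 14 did not pass. The rises were small, from 8.81% to 32.7% of mean FPKM, and at more than 2-fold with an unadjusted p under 0.05 limma called 0 of the 38, against 2.13% of all genes. Without the fold threshold, 24 members were higher and 5 lower at an unadjusted p under 0.05. The share of all genes at this threshold was not computed, so nothing is read from these counts. By the libraries themselves, all 3 cKO values lay above all 3 CTRL values in 23 members, against 25.5% of all genes, and below them in 5, against 28.5% of all genes. In the other 10 the groups overlapped.

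The cytosolic genes carried most of the rise. Of the 20, 16 (80.0%) were higher, 0 were lower, also at an unadjusted p under 0.05. Their log2 fold changes had a median of 0.19. Of the 17 mitochondrial genes without *Tarsl2*, 5 (29.4%) were higher, 2 (11.8%) were lower, 10 did not pass, and the median was 0.074. In alternative analyses this median ran from 0.031, without CTRL 1, to 0.10, and the cytosolic median from 0.16 to 0.22. For all genes tested the median was -0.0096, with quartiles at -0.15 and 0.15. The difference between both classes was not tested, because genes of a class share the same 6 libraries and are not replicates.

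**Figure D1:**
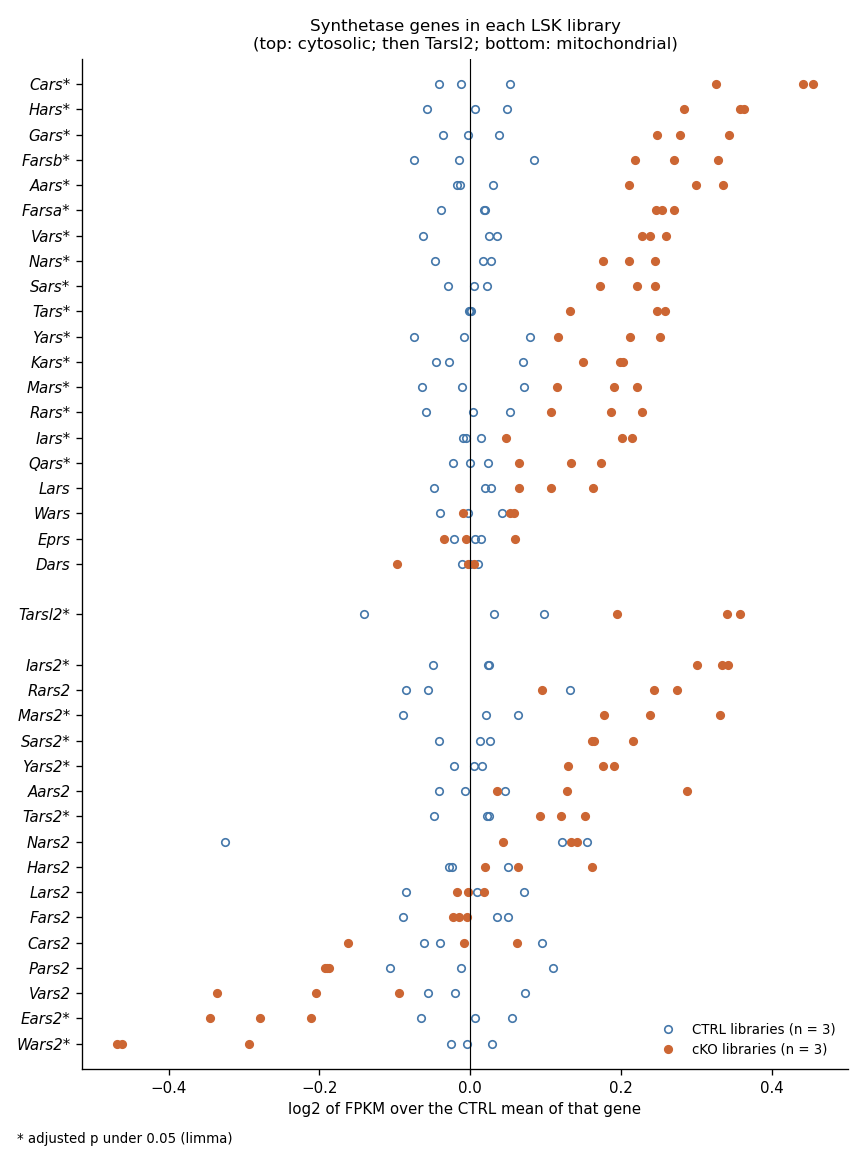
Each point is 1 library, placed by the log2 of its FPKM over the CTRL mean of that gene (x axis), with 1 row for each of 37 genes and an asterisk at an adjusted p under 0.05 (limma). In 17 of the 20 cytosolic genes all filled cKO points lie to the right of the open CTRL points, while the mitochondrial genes spread to both sides, from *Iars2* at the right to *Wars2* at the left.

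Among the cytosolic enzymes, *Cars* (cysteinyl, ENSMUSG00000010755, chr7:143557230-143600090, minus strand, GRCm38) changed most. It was at 5.53, 5.42 and 5.79 FPKM in CTRL and 7.58, 7.65 and 6.996 in cKO. Every cKO library was above every CTRL library, with a log2 fold change of 0.35 ± 0.049 (SE, adjusted p = 0.00196, limma).

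*Hars*, the histidyl enzyme (ENSMUSG00000001380), was more abundant. It was at 53.6, 49.8 and 52.1 FPKM in CTRL and 66.7, 66.4 and 63.1 in cKO. The groups were well apart, with a log2 fold change of 0.33 ± 0.038 (SE, adjusted p = 8.7e-04, limma). *Hars* and *Hars2*, which lie head to head, share 198 bases on opposite strands, and *Hars2* itself was higher by 0.074 on the log2 scale (adjusted p = 0.257, limma).

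*Gars*, the glycyl enzyme of both compartments (ENSMUSG00000029777, chr6:55038007-55079500, plus strand), was at 42.4, 43.6 and 41.4 FPKM in CTRL and 50.4, 51.5 and 53.9 in cKO. Its log2 fold change was 0.28 ± 0.035 (SE, adjusted p = 0.00124, limma), again without overlap.

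Phenylalanyl-tRNA synthetase is built from the subunits of *Farsa* and *Farsb*, and both rose. *Farsa* (ENSMUSG00000003808, chr8:84856989-84869257, plus strand) was at 49.6, 47.6 and 49.6 FPKM in CTRL and 59.0, 58.0 and 58.4 in cKO, and *Farsb* (ENSMUSG00000026245, chr1:78417975-78488897, minus strand) at 34.5, 35.95 and 38.5 in CTRL and 45.6, 43.8 and 42.3 in cKO. Neither gene overlapped between groups. The log2 fold changes were 0.25 ± 0.028 for *Farsa* (SE, adjusted p = 7.1e-04, limma) and 0.27 ± 0.049 for *Farsb* (SE, adjusted p = 0.00563, limma).

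*Aars*, the alanyl enzyme (chr8:111033144-111057664, plus strand), was low for a cytosolic gene, at 9.77, 9.79 and 10.1 FPKM in CTRL and 12.2, 12.5 and 11.4 in cKO. It rose by 0.26 ± 0.043 on the log2 scale (SE, adjusted p = 0.00381, limma), with no overlap between groups. *Exosc6*, which shares 1326 bases with it on the same strand, was listed at 0 in every library.

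The most abundant members were *Nars* (asparaginyl) and *Kars* (lysyl). *Nars* was at 63.8, 66.7 and 67.1 FPKM in CTRL and 78.1, 76.2 and 74.4 in cKO, and *Kars* at 61.4, 62.1 and 66.5 in CTRL and 70.3, 72.7 and 72.9 in cKO. Both rose in every cKO library, with log2 fold changes of 0.21 (adjusted p = 0.00291, limma) and 0.18 (adjusted p = 0.00919, limma). The other cytosolic genes that rose were *Vars* at a log2 fold change of 0.24, *Sars* at 0.21, *Tars* at 0.20, *Yars* at 0.18, *Mars* and *Rars* at 0.17, *Iars* at 0.15 and *Qars* at 0.12, with adjusted p from 0.00202 (*Vars*) to 0.0488 (*Iars*) in limma. *Iars* and *Qars* passed in 7 of 18 alternative analyses each, the fewest of this class, and *Yars*, *Mars* and *Rars* in 12 of 18 each.

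The remaining 4 cytosolic genes did not pass the limma test. *Lars* (leucyl) was at a log2 fold change of 0.11 (adjusted p = 0.0613) with all cKO libraries above CTRL. *Wars*, the tryptophanyl enzyme and a known interferon-induced gene, was at 25.3, 24.7 and 26.2 FPKM in CTRL and 26.3, 26.4 and 25.2 in cKO, a log2 fold change of 0.033 with a 95% confidence interval from -0.051 to 0.12. Its groups overlapped. *Eprs*, the fused glutamyl-prolyl enzyme, was at 0.0059 (95% confidence interval -0.088 to 0.10), and *Dars* (aspartyl) at -0.031 (-0.11 to 0.052). In this fit the intervals of *Wars*, *Eprs* and *Dars* lay well below the change of *Cars*. *Eprs* depended on the processing and was at 0.115 with GC and length trends removed (adjusted p = 0.0577, limma).

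*Tarsl2* was at 3.44, 3.60 and 3.05 FPKM in CTRL and 4.26, 4.31 and 3.85 in cKO. All cKO values were higher, with a log2 fold change of 0.24 ± 0.069 (SE, adjusted p = 0.0326, limma). It shares 923 bases with *Tm2d3* on the same strand, a gene that went from 21.9 to 26.9 FPKM, so reads of both cannot be fully told apart here. Its call held in 10 of 17 alternatives.

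The mitochondrial enzymes moved in both directions. *Iars2* (isoleucyl, ENSMUSG00000026618, chr1:185284726-185329396, minus strand) had the largest rise, from 10.5, 9.99 and 10.5 FPKM in CTRL to 12.7, 13.1 and 13.0 in cKO. The groups were far apart, with a log2 fold change of 0.30 ± 0.036 (SE, adjusted p = 0.00110, limma), and this call held in all 18 alternatives. *Iars2* shares 2034 bases with *Rab3gap2* on the other strand, at 6.27 FPKM in CTRL and 6.10 in cKO.

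*Mars2* (methionyl) was at 2.73, 2.81 and 2.53 FPKM in CTRL and 3.04, 3.38 and 3.17 in cKO, 0.19 higher on the log2 scale (adjusted p = 0.0473, limma). *Sars2* (seryl) was at 12.1, 12.0 and 11.5 in CTRL and 13.8, 13.3 and 13.3 in cKO, 0.17 higher (adjusted p = 0.0109, limma). Both genes kept their groups apart. *Yars2* (tyrosyl) was at 16.8, 16.7 and 16.4 in CTRL and 18.8, 18.2 and 19.0 in cKO, 0.16 higher (adjusted p = 0.00896, limma), and *Tars2* (threonyl) was 0.11 higher (adjusted p = 0.0470, limma). *Mars2* passed in 7 of 17 alternatives that could test it and *Tars2* in 7 of 18, and both calls were lost whenever any single library was left out.

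The lower members were both mitochondrial. *Wars2* (tryptophanyl, ENSMUSG00000004233, chr3:99141068-99239186, plus strand) was at 2.28, 2.23 and 2.20 FPKM in CTRL and 1.63, 1.83 and 1.62 in cKO, on 179 to 270 reads per library. *Ears2*, which charges glutamate and feeds the mitochondrial glutamine pathway (ENSMUSG00000030871, chr7:122037213-122067263, minus strand), was at 4.04, 4.39 and 4.25 FPKM in CTRL and 3.33, 3.65 and 3.48 in cKO. No cKO library reached a CTRL value in either gene. *Wars2* fell by 0.27 on the log2 scale (SE 0.064, adjusted p = 0.0159, limma) and *Ears2* fell by 0.22 (SE 0.054, adjusted p = 0.0181, limma). *Wars2* passed in 15 of 17 alternatives that could test it, not without CTRL 1, and *Ears2* in 13 of 17, not without CTRL 2, CTRL 3 or cKO 1.

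*Vars2* and *Pars2* were also below CTRL in all cKO libraries, at log2 fold changes of -0.18 and -0.15, but did not pass (adjusted p = 0.0598 and 0.0759, limma). Further mitochondrial genes that did not pass were *Rars2* at 0.19 (adjusted p = 0.0648, limma), *Aars2* at 0.13, *Nars2* at 0.078, *Hars2* at 0.074, *Lars2* at 0.00066, *Fars2* at -0.011 and *Cars2* at -0.028. *Nars2*, next to *Wars2* the least abundant member, was at 1.55, 2.17 and 2.12 FPKM in CTRL and 2.15, 2.13 and 2.01 in cKO, with 1 CTRL library low and the rest alike. Smaller overlaps with genes on the other strand were 115 bases of *Fars2* with *Lyrm4* (8.75 FPKM in CTRL, 11.7 in cKO), 984 of *Cars2* with *Naxd*, 89 of *Ears2* with *Ubfd1*, 544 of *Wars* with *Wdr25* and 68 of *Mars* with *Ddit3*, and whether counting used strand is not given in the sources used here.

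**Figure D2:**
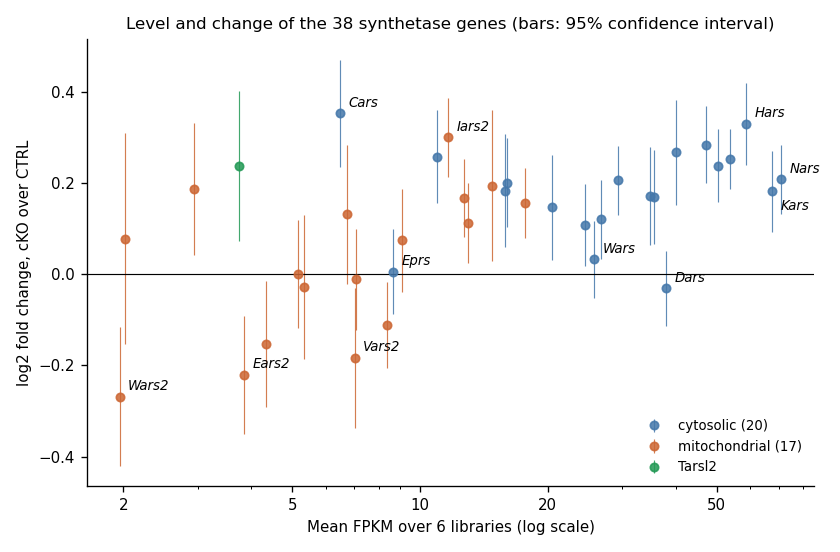
The x axis is the mean FPKM over 6 libraries on a log scale and the y axis the log2 fold change of cKO over CTRL, with a point for each gene and bars for the 95% confidence interval. Cytosolic genes lie to the right and mostly above 0, and the lowest point, *Wars2*, is also the gene of lowest level.

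The mitochondrial genes were the less abundant class, at a median of 7.02 FPKM (range 1.96 to 17.7) against 32.0 (range 6.49 to 71.0) for the cytosolic genes, values that FPKM gives per gene length. Level and log2 fold change had a Spearman correlation of 0.49 over the 38 genes, of 0.24 within the 20 cytosolic and of 0.54 within the 17 mitochondrial genes. These are descriptions across genes of the same 6 libraries, and the pseudocount of 1 pulls the changes of low genes toward 0. With voom on the recovered reads, which has no such pseudocount, the medians were 0.22 for cytosolic and 0.10 for mitochondrial genes.

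Summed over the class, the cytosolic genes gave 632.8, 628.5 and 640.4 FPKM in CTRL and 725.5, 735.3 and 726.7 in cKO. The mean went from 633.9 ± 6.04 to 729.1 ± 5.33 (SD, n = 3), 15.02% higher. The 17 mitochondrial genes gave 130.5, 128.2 and 130.8 in CTRL and 139.5, 136.2 and 136.5 in cKO, 5.82% higher. Both sums were above CTRL in every cKO library, and the ratio of cytosolic to mitochondrial went from 4.85, 4.90 and 4.90 in CTRL to 5.20, 5.40 and 5.33 in cKO. It was 8.71% higher on average, and with 3 libraries a group an exact two-sided permutation test cannot go below p = 0.1.

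**Figure D3:**
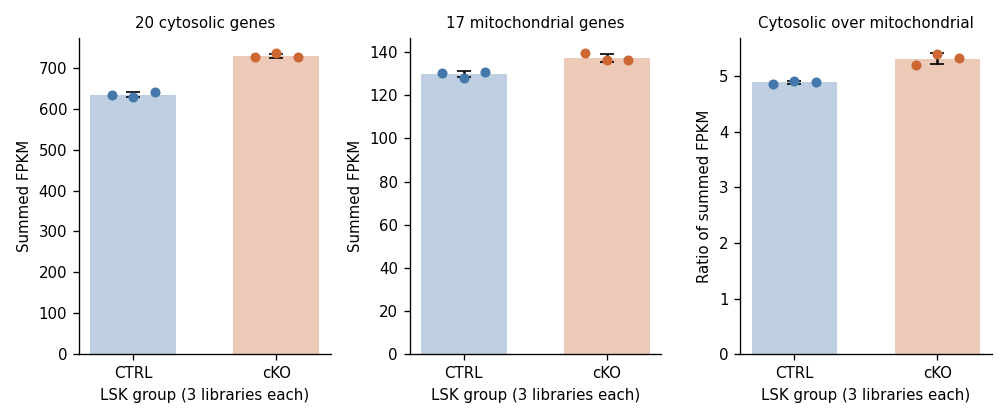
Bars give the mean and error bars the SD of 3 libraries, points the libraries, for the summed FPKM of 20 cytosolic genes, of 17 mitochondrial genes, and for the ratio of these sums. The rise is 15.02% for the cytosolic and 5.82% for the mitochondrial sum, and no cKO ratio falls to the CTRL values.

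Enzymes for the same amino acid can be set side by side in 18 pairs, with *Farsa* and *Farsb* each set against *Fars2*, and *Eprs* against *Ears2* and *Pars2*. The log2 fold change of the cytosolic gene was the larger in 15 pairs and the smaller in 3, by a median of 0.13 over all pairs. Taken library by library, the FPKM ratio of cytosolic to mitochondrial gene was higher in all cKO libraries than in all CTRL libraries in 9 pairs, lower in 1 and overlapping in 8. No such share was computed for other gene pairs, and *Eprs* and *Fars2* recur, so these counts only describe the pairs. The valine pair moved most, with *Vars* over *Vars2* at 6.14 in CTRL and 8.41 in cKO. For cysteine, *Cars* over *Cars2* was at 1.04 and 1.409. For tryptophan, *Wars* over *Wars2* was at 11.4 and 15.4, and here it was the mitochondrial gene that changed. Isoleucine ran the other way, with *Iars* over *Iars2* at 1.87 in CTRL and 1.66 in cKO and no overlap. By CTRL means the ratio also spanned a wide range between amino acids, from 0.889 for *Yars* over *Yars2* to 34.5 for *Nars* over *Nars2*. Only for *Yars2* was the mitochondrial gene the more abundant by the CTRL mean, though *Cars* over *Cars2* was at 0.961 in CTRL 1. These ratios depend on the gene lengths used for FPKM.

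**Figure D4:**
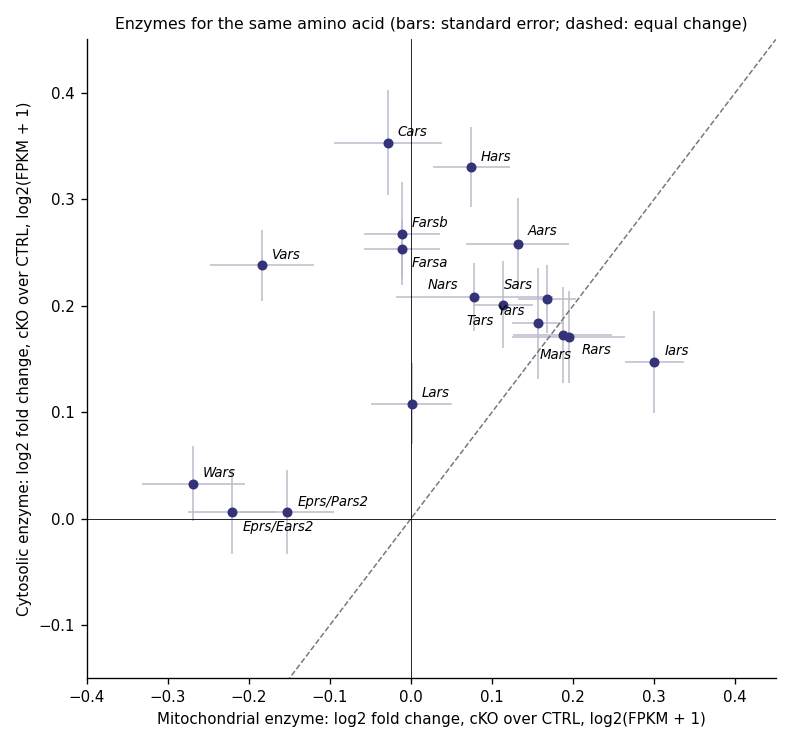
Each of the 17 points is an amino acid pair, with the log2 fold change of the mitochondrial gene on the x axis, that of the cytosolic gene on the y axis, and bars for the standard errors. Of these, 14 lie above the dashed line of equal change, with *Vars* and *Cars* far above it and *Iars* below it.

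Within the cytosolic genes the rise was not limited to 1 structural or functional group. Of class I genes 7 of 9 were higher (median log2 fold change 0.17) and of class II genes 9 of 10 (median 0.23), with *Eprs* holding both folds. Of the 8 enzymes of the multisynthetase complex, 5 were higher (median 0.13), and of the 12 outside it 11 (median 0.25). In the mitochondrial genes, 3 of 9 of class I were higher and 2 lower. Of class II, 2 of 8 were higher and 0 lower. Among all genes tested, 19.9% were higher and 20.6% lower. At an unadjusted p under 0.05 (limma), 4 of class I were higher and 3 lower, and 2 of class II higher and 2 lower. The share of all genes at this threshold was not computed. With so few genes per class, no difference between the mitochondrial classes is read from these counts. Of the 13 cytosolic genes listed as linked to ATF4, 10 were higher (median 0.20), and of the 7 not so listed 6 (median 0.18).

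The promoters were read for the ATF4 element because many, though not all, of the cytosolic genes are known targets of ATF4. RefSeq promoters (GRCm38.p6, 250 bases before to 50 after the start) were matched for 28 of 38 members. TGATGNAA, the core of the element bound by ATF4 with C/EBP proteins, was searched on both strands (TTNCATCA on the other) and was present in 5 of 28, against 3.97% of all 32851 promoters. The stretches around each match are shown with the match in capitals.
Yars, chr4:129189870-129189926, plus strand: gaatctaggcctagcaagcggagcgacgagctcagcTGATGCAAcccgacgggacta
Gars, chr6:55037935-55037994, plus strand: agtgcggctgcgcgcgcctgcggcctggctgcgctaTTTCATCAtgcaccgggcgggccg
Aars, chr8:111033694-111033753, plus strand: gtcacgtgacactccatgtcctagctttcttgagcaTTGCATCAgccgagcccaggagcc
Aars, chr8:111033815-111033865, plus strand: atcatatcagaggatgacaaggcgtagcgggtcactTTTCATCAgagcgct
Iars, chr13:49682101-49682153, plus strand: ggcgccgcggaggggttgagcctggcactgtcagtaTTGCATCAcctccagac
Tars, chr15:11399650-11399709, minus strand: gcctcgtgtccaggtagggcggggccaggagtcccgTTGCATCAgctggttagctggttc

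These 5 genes are all cytosolic, and all 5 were higher in cKO, as were 6 of the 8 cytosolic genes whose promoter held no match. None of the 15 mitochondrial genes with a promoter held one. The first base of the match lay at 30 bases before the start in *Gars* and 4 after it in *Yars*, and *Aars* held 2 matches. CACGTG, an E-box that MYC and related factors can bind and that reads the same on both strands, was in *Farsb*, *Aars*, *Iars*, *Tars* and *Ears2*, 5 of 28, against 7.15% of all promoters. No match overlapped another motif. The matches are letters in these windows and no binding was measured. *Nars*, *Hars*, *Vars*, *Rars*, *Wars*, *Lars*, *Cars*, *Hars2* and *Pars2* were among those not matched.

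The rest of the charging pathway was read from lists, whose counts stand against 19.9% higher and 20.6% lower among all genes tested, and nothing particular to a list is read from them. All 3 genes of the complex scaffold were higher, with *Eef1e1* from 20.1 ± 0.389 to 27.1 ± 0.333 FPKM (SD, n = 3; log2 fold change 0.41, adjusted p = 1.3e-04, limma), *Aimp2* at a log2 fold change of 0.30 and *Aimp1* at 0.12. Among the 8 enzymes of the complex the largest log2 fold change was 0.18. Of 10 accessory enzymes of charging, 4 were higher and 1 lower. *Dtd2*, which removes wrongly charged D-amino acids, was at a log2 fold change of 0.42, *Ppa1*, which hydrolyses the pyrophosphate that charging releases, at 0.33, *Mtfmt*, which formylates mitochondrial Met-tRNA, at 0.32 and *Gatb*, a subunit of the mitochondrial glutamine pathway, at -0.24.

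Among 31 genes of tRNA processing, modification and export, 18 rose and 2 fell, at a median of 0.16 on the log2 scale. *Trmt61a*, a tRNA methyltransferase subunit, was at 0.38 and *Pop5* and *Pop1* of RNase P at 0.37, while *Pop4*, also of RNase P, was at -0.31 and the tRNA 3' processing enzyme *Elac1* at -0.26. Of 21 RNA polymerase III genes 4 were higher, a share near the 19.9% of all genes tested, and 1 was lower, with a median of 0.057. Of 6 cytosolic elongation factor genes 3 were higher (*Eef1d* at 0.21, *Eif5a* at 0.20 and *Eef1b2* at 0.080) and 2 lower, with *Eef1a1*, whose product carries charged tRNA to the ribosome, at 5721 FPKM in CTRL and 5037 in cKO and *Eef2* at a log2 fold change of -0.20. Of 9 mitochondrial translation factors 3 were higher (*Tsfm* at 0.31, *Gfm1* at 0.22 and *Tufm* at 0.17) and 1 lower, *Mtrf1* at -0.27.

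Of the amino acid sensing genes around GCN2 and eIF2 alpha 1 of 10 was higher (*Eif2s1*), 3 were lower (*Ppp1r15a*, *Eif2ak3* and *Eif2ak1*), and the median was -0.12. *Atf4* RNA was at 114.6 FPKM in CTRL and 114.9 in cKO (log2 fold change 0.0029, adjusted p = 0.966, limma). Of 22 ATF4 target genes other than synthetases 14 were higher and 3 lower, from *Ddit4* at 0.95 and *Asns* (asparagine synthetase, 9.61 to 19.1 FPKM) at 0.92 to *Atf3* at -2.37.

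**Figure D5:**
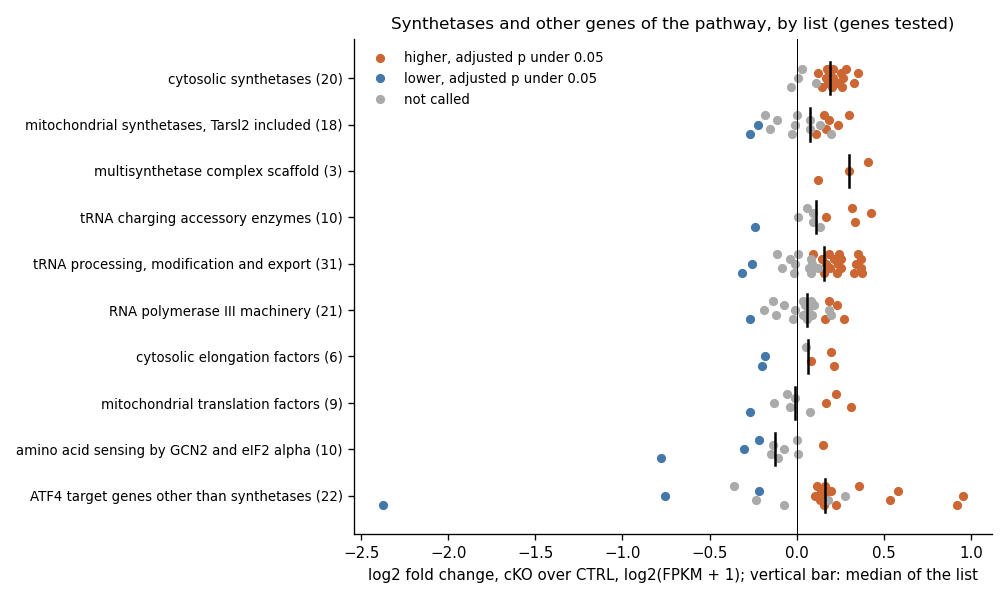
Each point is a gene, placed by its log2 fold change of cKO over CTRL (x axis) in the row of its list, coloured by its call at an adjusted p under 0.05 (limma), with a vertical bar at the list's median. The scaffold and cytosolic synthetase rows lie right of 0 apart from *Dars*, and the GCN2 and eIF2 alpha row has its median at -0.12.

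Markers of other cells moved in the same libraries, counted here over the markers that passed the filter. The summed erythroid markers were at 415.8 to 420.4 FPKM in CTRL and 756.7 to 781.3 in cKO (8 of 8 higher), and the megakaryocyte markers at 59.1 to 62.8 and 128.7 to 133.5 (4 of 4 higher, *Gp1bb* at 0). The monocyte markers were at 131.4 to 136.4 and 53.7 to 54.4 (5 of 5 lower). The mast cell and basophil sum was at 90.3 to 102.4 and 148.8 to 158.5 (5 of 6 higher), the B cell sum at 68.3 to 73.2 and 104.1 to 109.2 (3 of 5 higher, 1 lower), the T and NK sum at 356.8 to 367.8 and 306.9 to 311.6 (3 of 4 higher, and *Nkg7*, most of the sum, lower), the neutrophil sum at 251.2 to 263.2 and 229.6 to 258.9 (1 of 7 higher, 4 lower) and the LSK sum at 217.1 to 220.6 and 227.3 to 236.9 (4 of 8 higher, 1 lower). *Cd3e* and *Pax5* were at 0 in all CTRL libraries and under 1 FPKM in cKO. The part of these markers in the synthetase changes was not tested. In bulk libraries, more cells of a type and more RNA per cell cannot be told apart.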

How the data were processed

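RNA of sorted LSK cells (3 CTRL and 3 cKO libraries) was sequenced. The authors deposited 1 table of FPKM values with gene lengths. The submitters' processing notes name HISAT2 2.0.5 and mm10. The counting program and its use of strand are not given in the sources used here. FPKM times gene length was a whole number of reads (within 0.05) for 100% of values in each library, which gave the reads behind each value. Counting error alone is covered by such reads.

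Genes averaging at least 1 FPKM were tested on log2(FPKM + 1) with limma 3.58.1 (R 4.3.3, lmFit and eBayes with a trend, two-sided), with Benjamini-Hochberg adjustment over all genes tested. Fold changes on this scale understate low genes. Members, lists and tests were chosen with earlier results of these data known. Values in every library were given for the 5 largest called changes of each class, the most and least abundant pairs of genes, *Wars* and *Tarsl2*. *Farsa*, *Yars2* and *Myh9* were also given by library. For each list at most 3 called genes a direction were named, by fold change, group mean or call. *Eprs* and the other members were given by fold change, and lists by counts and medians. 1 member is counted but not reported by name here. The test was checked on simulated data. The labels do not say whether libraries come from separate mice, so p-values measure only the spread between these libraries. Library pairs of a group differed beyond sampling noise (chi-square 2.78 to 5.07 per gene) and none was counted as a duplicate. Genes overlapping a member were found by the gene coordinates deposited with the FPKM values. Transcript GC came from GENCODE M21 and promoters came from RefSeq. Alternatives were other pseudocounts, filters, scalings and variance models, a replicate block, GC and length trends removed, voom on recovered reads and each library left out. Other software was Python 3.11.15, pandas 2.3.3 and matplotlib 3.10.9.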

Additional observations from a re-analysis of the deposited data

How the results depend on the processing

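Of 24 called members, 14 were called in all 18 alternatives that could test them, 10 were lost in some (*Iars*, *Qars*, *Tars2*, *Mars2*, *Yars*, *Rars*, *Mars*, *Tarsl2*, *Ears2* and *Wars2*), and 0 changed direction. The count of higher members of 22 became 15 to 18 with 1 library left out and was 16 with no filter on low values, 15 without moderation, 17 with TPM and 24 with voom. The cytosolic count was 11 to 15 with 1 library left out, and 0 cytosolic genes were lower in any alternative. The mitochondrial count of 6 higher fell to 3 with no filter and with TPM, and was 3 to 4 with 1 library left out. It was 3 without the first CTRL or the first cKO library. The 2 lower genes, both mitochondrial, became 4 with TPM, 0 with a filter at 5 FPKM (which removes both), 0 with the replicate block and GC and length trends removed together, and 1 to 2 with 1 library left out, with 1 whenever a CTRL library was the one left out. The summed cytosolic rise of 15.02% was 13.3% with TPM and 12.3% with quantile normalization.

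Libraries of the same number did not deviate together (correlations of -0.0046, -0.011 and -0.026), so the numbers were not taken as pairs. With the replicate block 19 members were higher and 3 lower.

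Of members that were not called, *Cars2* turned to 0.041 and *Fars2* to 0.049 with GC and length trends removed, with or without the block, and *Fars2* to 0.0057 with quantile normalization and 0.0093 with voom. *Eprs* turned to -0.013 and *Lars2* to -0.017 with TPM. Their largest moves went up, to 0.115 for *Eprs* with GC and length trends removed and to 0.10 for *Lars2*, and neither passed in any alternative. With 1 library left out, *Cars2* lay between -0.070 and 0.025, *Dars* between -0.049 and 0.0010, *Eprs* between -0.018 and 0.024, *Fars2* between -0.050 and 0.012, *Lars2* between -0.035 and 0.031 and *Nars2* between -0.022 and 0.13. *Lars*, *Rars2* and *Vars2* passed in some alternatives. The cause was not tested. Depth limits *Wars2* and *Nars2* most.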
